A study of Mus musculus with 33 samples.

Results

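Genes of mouse chromosomes 9 and 13 whose RNA came mostly from 1 strain's allele were examined in hybrid embryonic stem (ES) cells. They were selected on their own allelic counts: a gene entered with 600 or more reads assigned to either allele, summed over the 10 libraries of days 5 to 10, and with a summed cas share at or below 25% or at or above 75%. The cas share is the percentage of allele-assigned counts that carry the cas variants. Of 2271 genes on the pair of chromosomes, within a table of 24391 genes, 636 reached the count minimum, and 52 of these passed the share thresholds. A short list of collagen and fibroblast genes was to be left out by name, and it removed 0 genes. The shares over days 5 to 10 are therefore the values that chose the genes and are given as a description. The shares at day 0 and the differences between lines were not used in the choice. Total expression entered only through the count minimum, which asked for allelic counts at days 5 to 10 and not at day 0.

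The cells came from a CAST/Ei x 129/Sv/Jae cross, and the table's allele names cas and mus were taken to mean CAST/Ei and 129/Sv/Jae. Polyadenylated RNA was sequenced from a wild-type line (WT) and a line of RepB genotype, named for Repeat B of the noncoding RNA Xist. Each line has a single library for day 0 and for each of days 5, 6, 7, 8 and 10 of differentiation, which makes 12. The labels describe neither the RepB edit nor the allele that carries it, and they give no sex or clone for either line. Both lines were maintained on irradiated mouse embryonic fibroblasts with LIF, freed of these feeders, grown as embryoid bodies and plated on gelatin. The 21 ChIP and input samples of the series were not analysed here.

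Library totals ran from 3594551 to 17773138 counts, and allelic counts made up 25.5% to 26.7% of them. Levels are given as CPM, which divides each count by the size of its library, and where a gene had no count its upper limit was set at 3 counts, which is 0.169 to 0.835 CPM. The 10 ES-cell markers summed to 6635 CPM in WT and 7327 CPM in RepB at day 0, and 0 of them were higher over days 5 to 10 than at day 0 in either line. The 16 fibroblast or feeder markers summed to 1115 and 1238 CPM at day 0 and to 368 to 13220 CPM in WT and 359 to 18400 CPM in RepB later. None of these 16 is among the 52 genes, but their absence says nothing about feeder RNA. The selection took genes of only a pair of chromosomes and was to leave fibroblast genes out by name. The part of feeder or fibroblast RNA in the allelic shares was not tested.

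In hybrid cells with a full chromosome set of each parent strain, each autosomal gene has a copy from each. Reads that cross a strain variant tell the copies apart. Whether the cells used here hold both copies of each gene was not tested. Most autosomal genes are transcribed from both copies at similar levels. Known exceptions are imprinted genes, which are read from the copy of 1 parent, and genes whose regulatory sequence differs between the strains. RNA counts alone cannot tell apart an allele that is present but not transcribed from an allele that the cells lack.

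Of the 52 genes, 51 had a low cas share and 1, Hspa8, a high one. Chromosome 9 held 45 of them and chromosome 13 held 7. In 28 genes the pooled cas share was under 1%, and in 40 it was under 5%. The other 584 genes with 600 or more counts had a median cas share of 49.7%, with 42.1% at the lower and 56.5% at the upper decile. In single libraries that median stayed between 49.0% and 49.9% over days 5 to 10 and between 48.0% and 48.6% at day 0.

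**Figure D1:**
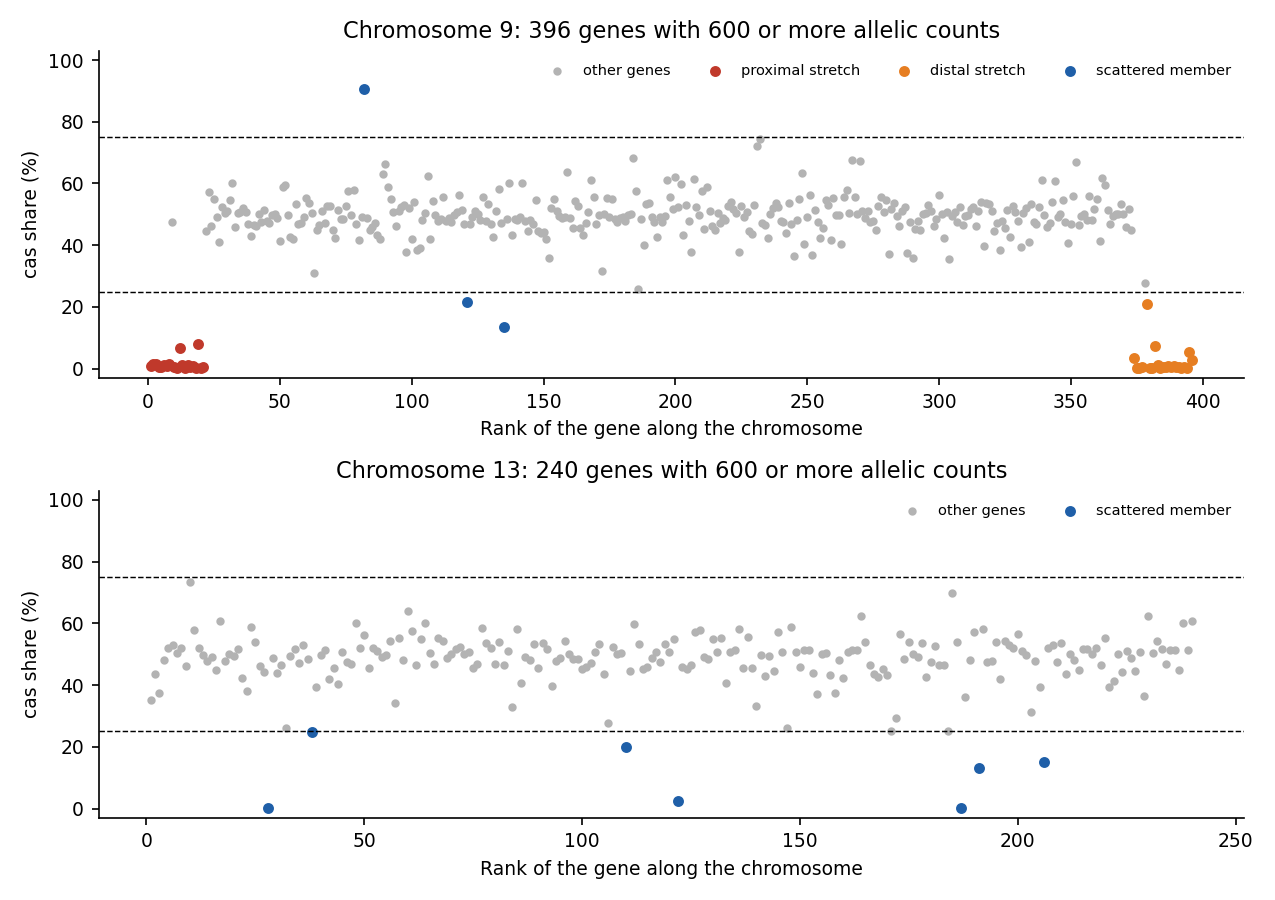
Pooled cas share (%, days 5 to 10, both lines) of each gene with 600 or more allelic counts, against its rank along chromosome 9 (top, 396 genes) and chromosome 13 (bottom, 240 genes). Coloured points are the 52 selected genes and dashed lines the 25% and 75% thresholds. Low-share genes fill both ends of chromosome 9, while those of chromosome 13 form no stretch and lie among genes mostly near 50%.

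Position set most of the selected genes apart from the rest. Of the 45 on chromosome 9, 42 lay in a proximal and a distal stretch, at either end of the mapped genes. The stretches were delimited after the values were seen, by joining selected genes with at most 1 other gene of 600 or more counts between them. All positions are mm9 starts of the first listed exon.

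The proximal stretch ran from Cwf19l2 (chromosome 9, first exon 3404085 to 3404190) to Smco4 (15309939 to 15310085), 11.9 Mb. It held 21 genes with 600 or more counts, and 20 of them were selected, with a median cas share of 0.914% and a range of 0.276% to 7.96%. They include Yap1, the transcriptional coactivator of the Hippo pathway, Amotl1, an angiomotin that binds YAP, Birc2, an inhibitor of apoptosis, and Mre11a, a nuclease of DNA double-strand break repair. The exception was Mtmr2, a myotubularin lipid phosphatase that lies between Arhgap42 and Cep57, with a cas share of 47.5% (95% interval 44.4 to 50.6, 1033 counts). It splits the stretch into a run of 8 genes, Cwf19l2 to Arhgap42, and a run of 12, Cep57 to Smco4.

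With at least 50 allelic counts as the minimum, the proximal stretch held 33 genes, including the 20 selected for a low share. Of the 33 genes, 29 had a share at or below 5%. Those above it were Birc3 at 5.91%, Cwc15 at 6.71%, Taf1d at 7.96% and Mtmr2. Only Birc3 among these was below the count minimum of the selection. The other genes added by the lower minimum were thus at or below 5%. Outside the stretch, Alkbh8, just before it, stood at 1.18%, and Slc36a4 and Fat3, just after it, at 0.538% and 0.864%. The next gene with at least 50 counts, Chordc1 (start 18096711), stood at 45.4%. Beyond it Zfp558 (start 18258498), with only 80 counts, stood at 17.5%, and Zfp317 (start 19426535) at 44.7%. Shares near 0 thus ended at Fat3 (start 15714637), while Zfp558 lay between both levels.

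The distal stretch ran from Wdr48 (chromosome 9, first exon 119804013 to 119804075) to Fyco1 (123698618 to 123701867), 3.90 Mb. Of its 23 genes with 600 or more counts, 22 were selected, with a median cas share of 0.580% and a range of 0.238% to 21.1%. They include Ctnnb1, which encodes beta-catenin, the effector of canonical Wnt signalling, Rpl14, a protein of the large ribosomal subunit, Kif15, a mitotic kinesin, Limd1, a LIM-domain protein of the Hippo pathway, and the zinc finger genes Zfp651, Zfp445 and Zfp105. The exception was Rpsa, a protein of the small ribosomal subunit, at 27.9% (95% interval 26.4 to 29.4, 3347 counts). RefSeq names 12 copies of Rpsa elsewhere, and how the counting treated reads shared with them is not given in the sources used here. It names 0 copies of Mtmr2, Eif1b, Lztfl1 and Higd1a, which also had higher shares than most genes of the stretches. It names 1 copy of Rpl14, a selected gene with a low share. Whether copies changed any of these shares was not tested.

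The distal boundary was narrower than the proximal one. Acvr2b (start 119311619) stood at 49.5%, and Wdr48, the first gene of the stretch, at 3.45%. No gene with 50 or more counts followed Fyco1. Of 35 genes in the stretch with at least 50 counts, which include the 22 selected ones, 29 were at or below 5%. Those above it were Sacm1l (5.54%), Trak1 (7.29%), Eif1b (21.1%), Lztfl1 (27.8%), Rpsa and Higd1a (36.2%). Among these, Lztfl1 and Higd1a were below the count minimum of the selection.

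These levels were those of much of the genome. On 11 other autosomes the median cas share of genes with 600 or more counts was 0.652% to 0.894%, and 94.5% to 97.5% of such genes had a share at or below 25%. On chromosomes 9 and 13 the medians over all such genes were 48.9% and 49.6%, and near-equal shares were not particular to them. Chromosomes 5 and 7 had medians of 48.4% and 48.3%. At or below 25% were 20.7% and 17.1% of their genes, against 11.1% on chromosome 9 and 2.92% on chromosome 13. Chromosome 8 had a median of 56.7%, but 43.5% of its genes were at or below 25%, and its quartiles were 0.772% and 66.7%. Chromosomes 2, 6 and 11 had medians of 4.44%, 0.958% and 3.43% with upper quartiles of 48.6%, 12.2% and 48.5%.

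The low shares hardly varied between libraries. Pooled over its selected genes, the proximal stretch had a cas share of 1.63% to 2.07% in the 5 WT libraries of days 5 to 10 and of 1.67% to 2.52% in the 5 RepB libraries. The distal stretch had 1.17% to 1.41% in WT and 0.875% to 1.31% in RepB. The ranges of the lines overlapped in both stretches.

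Beta-catenin shows how little cas RNA was read from the stretches. In the order of days 0, 5, 6, 7, 8 and 10, its cas share was 0%, 0.225%, 0.444%, 0.489%, 0.444% and 0.253% in WT and 0.119%, 0.599%, 0.144%, 0%, 0.293% and 0.554% in RepB. Over days 5 to 10 only 29 of 8523 allelic counts of Ctnnb1 were cas. Rpl14, with the most allelic counts of the low-share genes (10663), lay between 0.119% and 0.607% in all 12 libraries.

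Yap1 and its binding partner gene Amotl1, in the proximal stretch, were at the same level. Yap1 had a cas share of 0.638%, 0.721%, 0.511%, 0.575%, 1.28% and 0.356% in WT and 0.424%, 2.36%, 0.463%, 0.904%, 2.07% and 0.738% in RepB, in the same order of days. Its means over days 5 to 10 were 0.689% ± 0.357 and 1.31% ± 0.849 (SD over 5 days), so the ranges overlapped. Amotl1 stood at 0.972% ± 0.219 in WT and 1.13% ± 0.759 in RepB, Tmem123 at 0.315% ± 0.331 and 0.578% ± 0.721, and Mre11a at 1.20% ± 0.384 and 1.38% ± 0.656 (SD, n = 5 days).

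A few genes of the stretches had higher cas shares, and did so repeatedly. Such genes were not particular to the stretches. On the 11 other autosomes with medians of 0.652% to 0.894%, 84.9% to 91.0% of genes meeting the count minimum were at or below 5%. Whether the reads counted as cas in these genes came from a cas copy was not tested. Cwc15, a splicing factor gene, had a share of 5.13% to 7.68% in all 12 libraries. Taf1d, a subunit gene of the RNA polymerase I factor SL1, stood at 3.48% and 3.49% in the day 0 libraries of WT and RepB and at 6.03% to 10.0% later, with no overlap between day 0 and the later days. Trak1, a mitochondrial transport adaptor gene, had 2.24% and 4.06% at day 0 and 3.41% to 11.1% later. Fyco1, an autophagosome transport gene, went the other way, with 12.01% and 7.24% at day 0 and 0% to 7.61% later, and its groups overlapped. Eif1b, a translation initiation factor gene, ranged from 11.1% to 33.3% over the 12 libraries, the widest range in its stretch.

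The other 10 genes lay outside the stretches, with no selected gene next to them and mostly among genes of near-equal shares. Lincenc1 and Btf3 were still among each other's nearest genes, and Gfm2 (start 97907892, 25.3%), just outside the threshold, lay close to Lincenc1. For each of them the median share of the up to 10 nearest genes with 600 or more counts (5 on each side) was between 46.4% and 50.7%. For the genes of the stretches the same median was 0.432% to 26.4% (proximal) and 0.488% to 36.3% (distal). The contrast follows in large part from the grouping, which used the same shares of adjacent genes. On chromosome 9 the genes outside the stretches were Hspa8 (first exon 40609356 to 40609431), Sdhd (50404445 to 50405355) and Psma4 (54798666 to 54798710). On chromosome 13 they were Hist1h2an (21878641 to 21879087), Uqcrfs1 (30632181 to 30633210), Hnrnpk (58492493 to 58493837), Uqcrb (67001557 to 67001762), Lincenc1 (98204925 to 98205047), Btf3 (99079852 to 99080156) and Ccnb1 (101548694 to 101549740).

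Hspa8, which encodes the constitutive cytosolic Hsc70 chaperone, was the only gene of the 52 read mainly from the cas allele, with a pooled share of 90.7% (95% interval 90.1 to 91.3, 9885 counts). In the order of days its cas share was 78.3%, 90.5%, 92.5%, 89.2%, 89.7% and 95.8% in WT and 88.1%, 87.5%, 89.4%, 89.8%, 91.1% and 94.8% in RepB. The mus allele was thus read in each library, and the lowest value was WT day 0 (95% interval 76.5 to 80.1), whose interval did not meet that of RepB day 0 (86.8 to 89.3). The highest was day 10 in both lines.

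Other scattered genes had intermediate shares. Psma4, a subunit gene of the proteasome core, had a pooled share of 13.4%, with 33.9% and 22.0% in WT and RepB at day 0 and 5.33% to 16.1% later, without overlap. Hnrnpk, which encodes an RNA-binding protein, had a pooled share of 19.98% and ranged from 13.2% to 32.4% over the 12 libraries, with WT day 8 the highest. Ccnb1, the gene of the mitotic cyclin B1, had 15.2%, with 21.7% and 22.5% at day 0 and 11.2% to 26.1% later. Sdhd, a subunit gene of succinate dehydrogenase, had 21.5% and ranged from 12.2% to 26.5%. Btf3, a subunit gene of the nascent polypeptide-associated complex, had 13.2% and ranged from 6.25% to 26.5%.

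Uqcrfs1 and Uqcrb, both subunit genes of respiratory complex III, differed in their share. Uqcrfs1 was the gene nearest to the threshold, at 24.97%, and passed 25% in only 5 of the 10 libraries. Uqcrb had 2.44% (95% interval 1.55 to 3.64) and lay between 0% and 5.62% in all 12 libraries. Lincenc1, a long noncoding RNA gene expressed in ES cells, had 1 cas count among 1327 over days 5 to 10 (0.0754%) and shares of 0.330% and 0.545% at day 0, among 1816 and 1469 allelic counts.

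Hist1h2an, a replication-dependent histone H2A gene, entered through 3 libraries. WT day 5 gave 743 of its allelic counts, WT day 7 gave 370 and RepB day 8 gave 146, and the other libraries gave 7 or fewer. Its level was 41.8, 32.9 and 40.6 CPM in those 3 libraries and at most 0.430 CPM in the others. Of its total counts over days 5 to 10, 99.9% were assigned to an allele, against a median of 34.0% in the selected genes. Histone H2A genes are near-identical copies, so that this row and its share of 0.158% are uncertain. Copies named after a gene were looked for in RefSeq, which names Rpl14-ps1 and Ccnb1-ps and 0 such copies of Hspa8, Hnrnpk, Btf3 and Uqcrb. A named copy was found for 1 of the 42 genes of the stretches, 1 of the 10 scattered genes and 16 of the 584 unselected genes. Hist1h2an and Lincenc1, both scattered genes, were not found in RefSeq under these names, so the search could not find copies of them. Copies under other names were not looked for. The strand setting of the counting is not given in the sources used here, so counts of overlapping genes are uncertain as well.

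**Figure D2:**
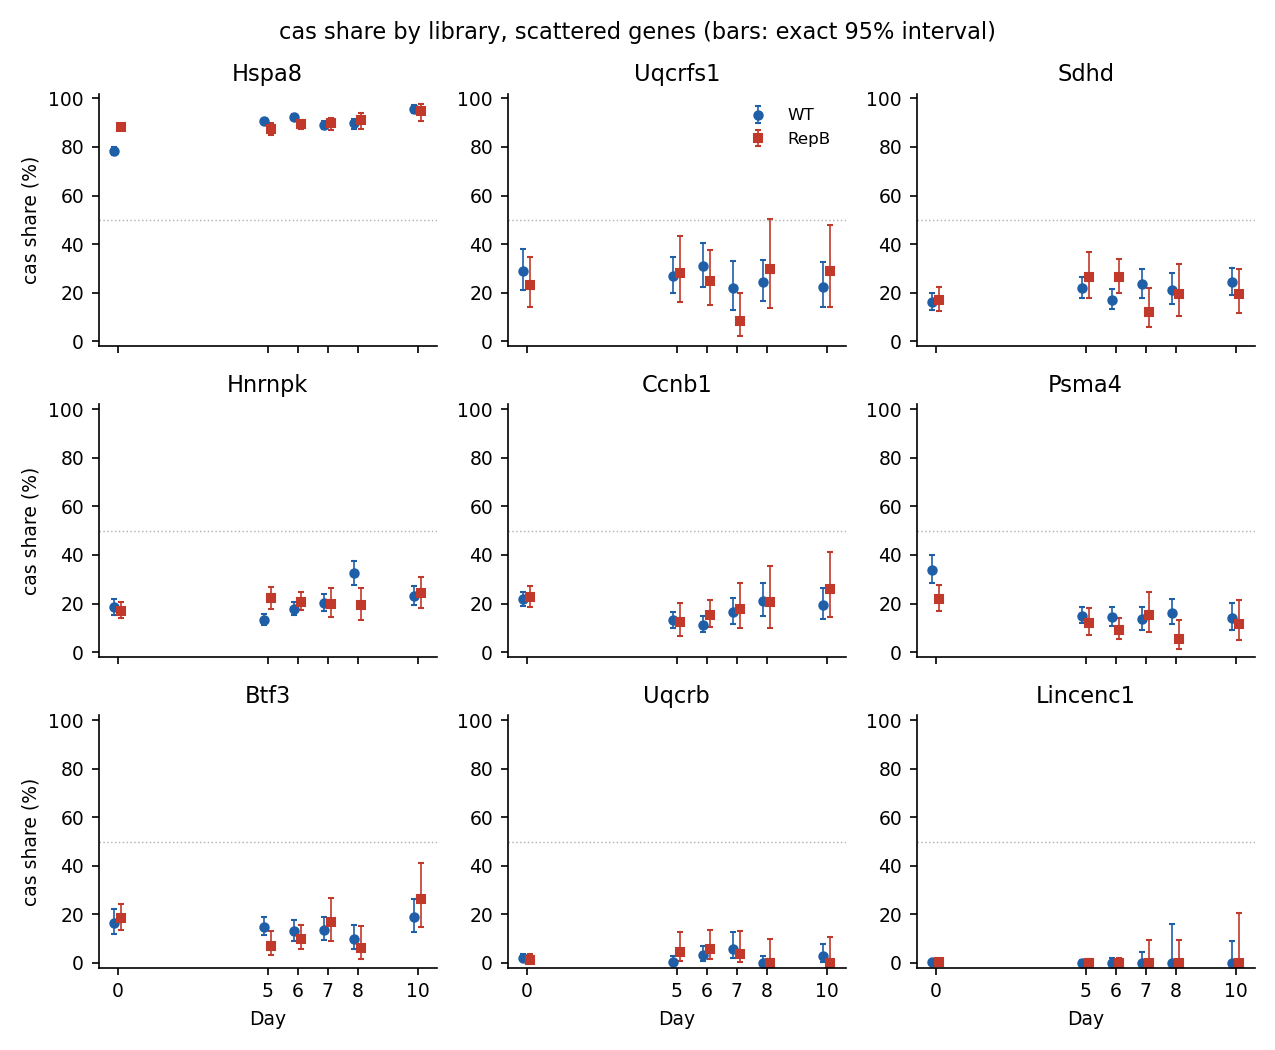
cas share (%) by day in WT (blue circles) and RepB (red squares) for 9 of the 10 scattered genes, 1 library per point, with exact 95% binomial intervals that cover counting error. Hspa8 lies at 78.3% to 95.8%, Psma4 is higher at day 0 than later in both lines, and Uqcrb and Lincenc1 lie near 0; Hist1h2an, with 3 libraries above 7 counts, is left out.

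The selection threshold cut through a continuous range on the low side. Just inside it were Uqcrfs1 (24.97%), Sdhd (21.5%) and Eif1b (21.1%), and just outside were Tbca (25.2%), Gfm2 (25.3%) and Uchl4 (25.8%). On the high side Hspa8 stood apart at 90.7%, and the nearest genes outside were Rsl24d1 (74.4%), Gm10336 (73.4%) and Khdc3 (72.2%). In each of the 10 libraries 45 of the 52 genes passed the threshold on their own. The 7 that did not were Sdhd, Eif1b and Hist1h2an (8 libraries each), Hnrnpk, Btf3 and Ccnb1 (9 each) and Uqcrfs1.

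Day 0, which the selection did not use, gave the same picture. Of 51 selected genes with at least 20 allelic counts in both day 0 libraries, 48 were again past the 25% or 75% threshold in both, 47 low and 1 high. They were 20 of 20 in the proximal stretch, 21 of 22 in the distal stretch and 7 of 9 among the scattered genes, and those not past it were Eif1b, Uqcrfs1 and Psma4. The background on chromosomes 9 and 13 was 9.26% of 983 genes, which include the selected ones, and over all autosomes it was 67.1% of 10328 genes. Among the 576 unselected genes with 600 or more later counts it was 10 genes, or 1.74%. Pooled, the proximal stretch stood at 1.32% and 1.33% at day 0, below its 10 later libraries. The distal stretch stood at 1.499% and 1.843%, above its 10 later libraries. A few genes gave much of these cas counts. Taf1d had 3.48% and 3.49% at day 0 in WT and RepB and 7.96% over days 5 to 10. Fyco1 had 43 and 21 cas counts at day 0 and 40 over days 5 to 10. Pooled shares without these genes were not calculated, so a shift of a whole stretch is not shown.

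**Figure D3:**
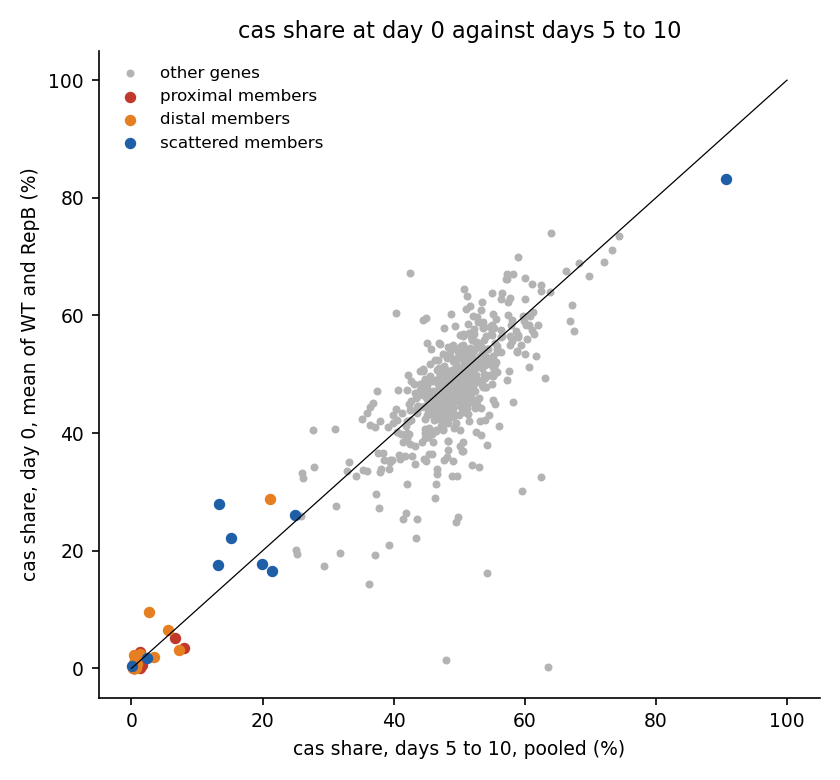
cas share at day 0 (%, mean of the WT and RepB library) against the pooled share over days 5 to 10 (%), for genes of chromosomes 9 and 13 with at least 20 allelic counts in each day 0 library. Coloured points are the selected genes, grey points the others and the line marks equal values; 48 of 51 selected genes are past the thresholds in both day 0 libraries.

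Some of the 10 unselected genes with low day 0 shares had much higher shares later. Tagln, a smooth muscle and fibroblast gene, had 1.49% and 1.43% at day 0 and 48.0% over days 5 to 10, and the collagen gene Col12a1 had 0.402% and 0% at day 0 and 63.5% later. The selection, which asked for an extreme share over days 5 to 10, leaves out genes of this pattern by its construction. All 52 selected genes were on the same side of 50% in both day 0 libraries as over days 5 to 10.

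The WT and RepB lines were then compared to ask whether the Xist genotype went with a change in the share of these autosomal genes. For genes with shares near 0 a difference in percentage points can only be small, and Fyco1, for example, stood at 3.66% ± 2.43 in WT and 1.69% ± 1.21 in RepB over days 5 to 10 (SD, n = 5 days), with overlapping ranges. The largest differences in points were in Psma4, 14.6% ± 1.02 in WT and 10.6% ± 3.69 in RepB, and in Ccnb1, 16.2% ± 4.17 and 18.4% ± 5.28 (SD, n = 5 days), and the ranges overlapped in both. In the edgeR quasi-likelihood test of allele by genotype, 0 of the 52 passed an adjusted p of 0.05, and 0 had an unadjusted p under 0.05, against a background of 2.24% called among 10332 genes. Allelic counts were tested with this tool alone. Of the 231 genes called, 178 were X-linked. The smallest adjusted p among the 52 was 0.85, for Yap1, with a log2 odds ratio of 0.95 (RepB over WT). Where cas counts were few the test could detect only large changes, so a missing call there does not show equal shares. The SE of the log2 odds ratio was 1.96 in Cep57, 1.99 in Csrnp1 and 6.27 in Exosc7, against 0.15 in Hspa8 and 0.16 in Hnrnpk. Zfp651, at -2.96 ± 1.94 (SE), was not called.

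No gene of the 52 was called for a steady change of share by the edgeR test of the slope per day over days 5 to 10. The count was 0, against a background of 1.32% called among 9915 genes. Of the 131 genes called in that background, 61 were X-linked, while the selected genes are all autosomal. Among the 52, 3 had an unadjusted p under 0.05. These were Hspa8, with a log2 odds slope toward cas of 0.18 ± 0.06 per day (SE, adjusted p = 0.127), Ccnb1 (0.21 ± 0.07, adjusted p = 0.179) and Hnrnpk (0.15 ± 0.05, adjusted p = 0.217). Day 10 carried the slope of Hspa8, which was 0.01 ± 0.07 (adjusted p = 1) without it and passed the test without day 6 (adjusted p = 0.0312) or day 8 (0.0088). Hnrnpk passed the test without day 10 (0.28 ± 0.08, adjusted p = 0.0428).

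Total expression, the sum over both alleles and over reads that carry no variant, was compared between lines by edgeR. It differed in 1 of the 52 genes: 1 was higher in RepB, against a background of 1.51% of 15179 genes, and 0 were lower, against 0.771%. Of the 346 genes called in either direction, 86 were X-linked. An unadjusted p under 0.05 was reached by 3 of the 52 genes, among them Ankrd49 (log2 0.26) and Arhgap42 (log2 0.25), which were not called. DESeq2 also called 1 gene higher and 0 lower. The median log2 RepB/WT of the 52 was 0.01, against -0.00 over all genes tested.

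The gene higher in RepB was Lincenc1. In the order of days it stood at 134, 39.2, 15.3, 8.54, 3.35 and 4.41 CPM in WT and at 122, 48.7, 36.0, 12.6, 12.2 and 6.67 CPM in RepB. The RepB value was the higher on each of the 5 days from day 5 and the lower at day 0. The log2 difference over days 5 to 10 was 0.85 ± 0.19 (SE, adjusted p = 0.0391). The call was lost without day 6 (adjusted p = 0.182), day 7 (0.109) or day 10 (0.0846).

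Between day 0 and days 5 to 10 total expression rose in 24 of the 52 genes, against a background of 31.7% of all genes called higher, and fell in 6, against 32.3% called lower. The other 22 were not called. The median log2 change was 0.27, against 0.01 over all genes. Since the selection asked for counts at days 5 to 10 and not at day 0, the 584 unselected genes under the same minimum are the closer reference: 37.2% were higher and 28.9% lower, with a median of 0.05. The count was 10 higher and 1 lower in the proximal stretch, 12 and 1 in the distal stretch, and 2 and 4 among the scattered genes. With 1 library per line at day 0, this edgeR test takes its spread from how the lines differ from day to day.

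The largest rises were in the distal and proximal stretches. Zfp651, a zinc finger gene, stood at 9.30 and 9.06 CPM in WT and RepB at day 0 and at 23.7 to 48.6 CPM in the 10 later libraries (log2 1.84 ± 0.17, SE, adjusted p = 1.66e-06). Ano10, a gene of the anoctamin family, rose over the course, from 15.9 and 12.3 CPM at day 0 through 29.5 and 14.0 CPM at day 5 to 74.2 and 75.02 CPM at day 10 (1.69 ± 0.20, adjusted p = 1.11e-05). Ankrd49, an ankyrin repeat gene, went from 11.5 and 16.4 CPM to 23.4 to 56.6 CPM (1.53 ± 0.15, adjusted p = 2.72e-06). Tmem123, a transmembrane protein gene, went from 38.0 and 26.7 CPM to 64.8 to 86.8 CPM (1.35 ± 0.11, adjusted p = 7.3e-07). Day 0 and later values did not overlap in Zfp651, Ankrd49 and Tmem123, while in Ano10 RepB day 5 lay between the day 0 values.

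Genes of the Hippo and Wnt pathways were among the other rises, and their RNA was almost all mus throughout. Yap1 stood at 135 and 124 CPM at day 0 and 220 to 299 CPM later (log2 1.10 ± 0.12), Amotl1 at 65.2 and 71.0 CPM and then 81.7 to 269 CPM (1.30 ± 0.17), and Limd1 at 29.2 and 29.0 CPM and then 57.6 to 76.2 CPM (1.30 ± 0.12). Ctnnb1 stood at 532 and 531 CPM at day 0 and 741 to 878 CPM later (0.67 ± 0.10). No list of either pathway was tested, and these genes were picked for their known roles after their values were seen.

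The falls were led by scattered genes. Lincenc1 fell by 3.21 ± 0.16 on the log2 scale (SE, adjusted p = 9.66e-09), with all 10 later values below both day 0 values. Trak1, of the distal stretch, went from 122 and 126 CPM to 25.2 to 71.3 CPM (log2 -1.38 ± 0.12, adjusted p = 8.81e-07). Ccnb1 had 100 and 56.1 CPM at day 0 and 30.4 to 51.4 CPM later (-0.73 ± 0.11, adjusted p = 9.8e-05). Uqcrb had 34.3 and 19.4 CPM and then 10.9 to 22.5 CPM, so its groups overlapped (-0.69 ± 0.17, adjusted p = 0.00378). Cep295 (-0.56) and Hspa8 (-0.53) were the other two.

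**Figure D4:**
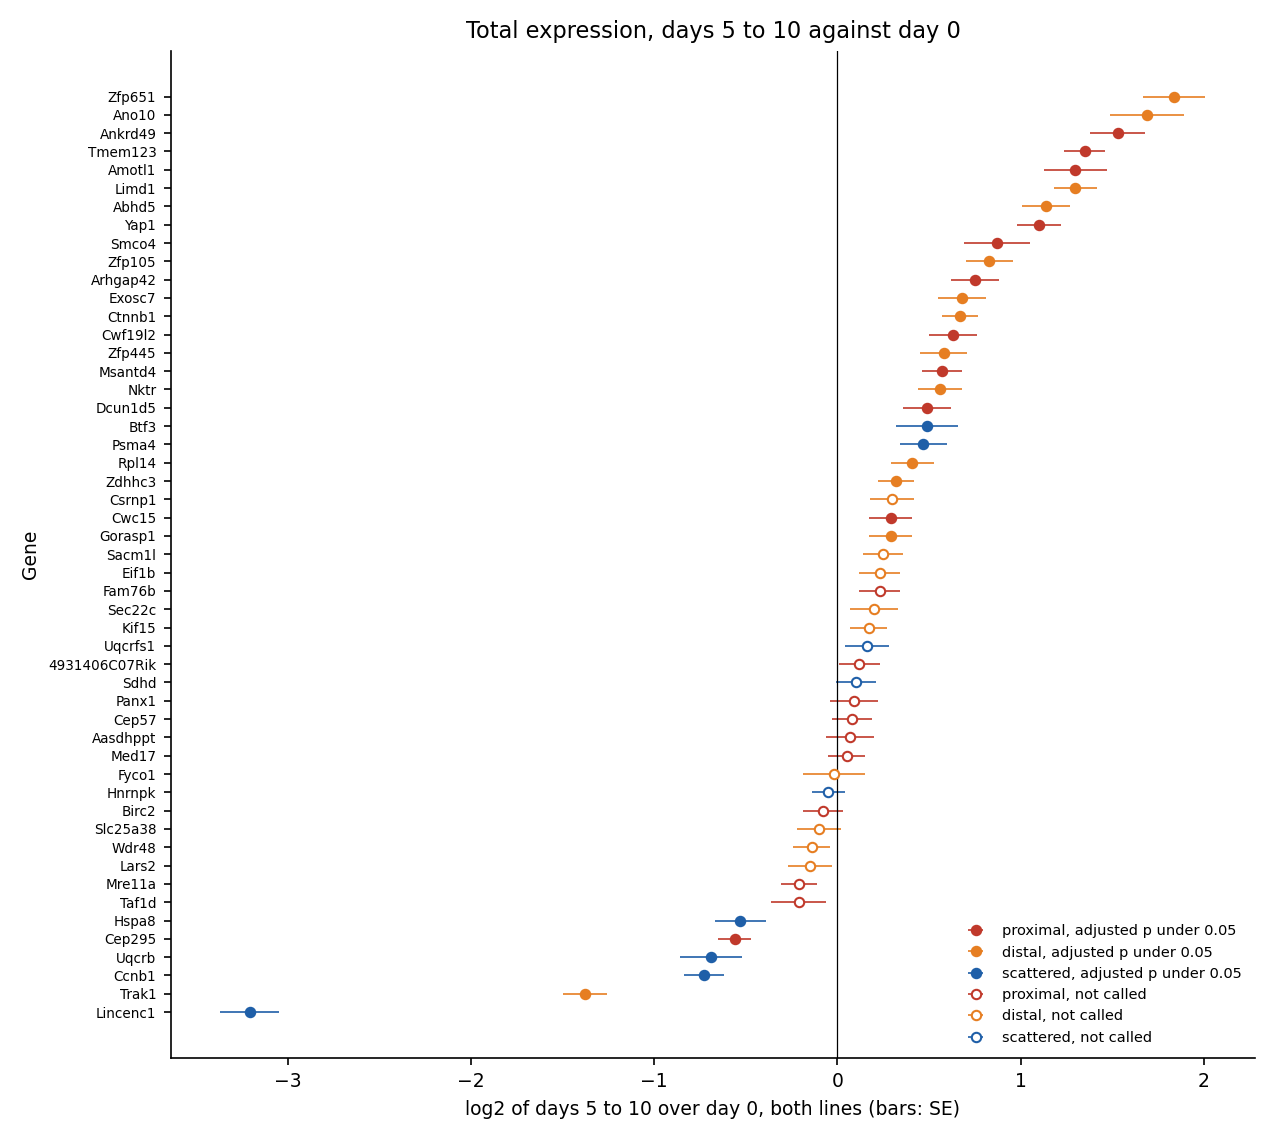
log2 of total expression at days 5 to 10 over day 0 (both lines, bars are SE from the edgeR fit) for 51 of the 52 selected genes, ordered by size and coloured by place. Filled points passed an adjusted p of 0.05, 24 above 0 and 6 below; Hist1h2an (3.13 ± 2.68) was not called and is left out.

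**Figure D5:**
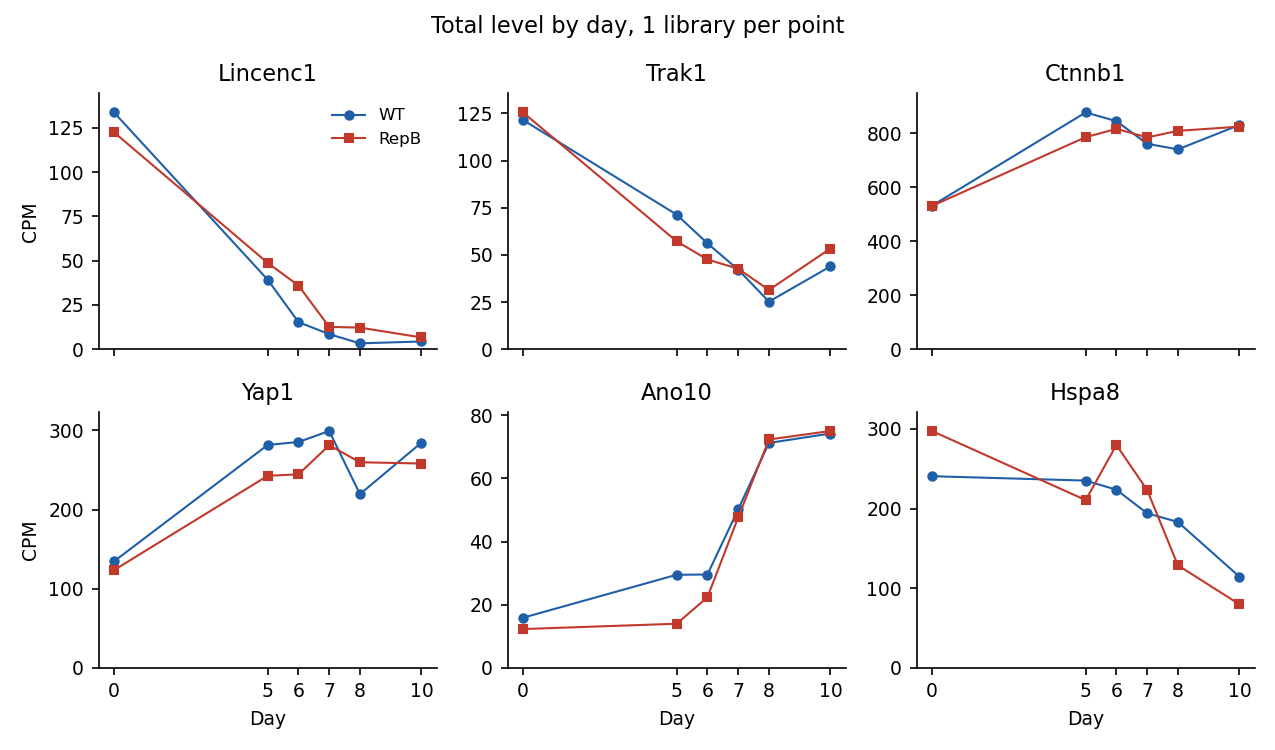
Total level (CPM, linear axis from 0) by day of 6 selected genes in WT (blue circles) and RepB (red squares), 1 library per point with no error bar. Lincenc1 and Trak1 fall from day 0, Ctnnb1, Yap1 and Ano10 rise, and Hspa8 ends at its lowest values, 114 and 79.8 CPM, at day 10.

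Gene families on the pair of chromosomes were counted without a test, beside 52 selected of all 636 genes with 600 or more counts. Zinc finger genes gave 3 selected of 16, and all 3 lie in the distal stretch. Solute carriers gave 1 of 7 (Slc25a38), ribosomal protein genes 1 of 6 (Rpl14), cluster histones 1 of 1, and genes without a name 1 of 11 (4931406C07Rik). Nuclear genes of mitochondrial ribosomes, complex I and cytochrome oxidase gave 0 of 10, and serpins and glutathione transferases 0 of 1 each. Rasgrf1, an imprinted gene of chromosome 9 (start 89804613), had only 4 allelic counts over days 5 to 10, all of them cas, too few to enter. The selected genes had a median of 34.0% of their total counts assigned to an allele, against 32.8% in the unselected ones, and a median exon length of 2992 bases against 3582 bases.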

How the data were processed

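RNA-seq of 12 libraries was used. The authors deposited raw counts per gene (total, cas and mus columns), without normalization, and the summed exon length as the other column type. Per the submitters' processing notes the tools include TopHat, Novoalign, SAMtools, bedtools and featureCounts, with build mm9, without versions or roles. The 6 count columns of a day with no matching RNA sample were not used.

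Analyses used R 4.3.3 with edgeR 4.0.16 (TMM, filterByExpr, quasi-likelihood F test, Benjamini-Hochberg over all genes, threshold 0.05). The total fit had day as a factor and genotype at day 0 and over days 5 to 10 (4 residual degrees of freedom). Same-day WT and RepB libraries were paired by day. Allele fits had a block per library, a common library size for both alleles and a mean of at least 20 allelic counts. Each p measures steadiness over days of 1 time course per line, not between cultures. Share intervals are exact Clopper-Pearson 95% intervals and cover counting error only. The fits were tested on simulated data. Allelic changes were simulated only in genes of intermediate cas share, so finding a change at the very low shares of most selected genes was not tried. Alternatives included DESeq2 1.42.0.

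The members and lists were chosen with earlier results of these data known. Genes were named by counts, size of change, distance to the threshold, ends of runs of at least 3 genes, and Rasgrf1 in any case; others were picked after values were seen. The value of 1 gene outside the stretches is not reported here.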

Additional observations from a re-analysis of the deposited data

How the results depend on the processing

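The number of selected genes depended most on the count minimum. It was 49 with thresholds of 20% and 80%, 63 with 30% and 70%, 66 with a minimum of 300 counts, 31 with 1200, 53 from the mean of the library shares, 53 from WT alone and 55 from RepB alone, against 52. At day 0 the count past the threshold was 48 also with at least 50 counts. Without 1 day, at the same minimum, 41 to 49 were selected. RepB against WT called 346 genes; without a low-count filter it called 592, leaving out 1 day gave 38 (day 7) to 744 (day 8), and without the day pairing (no replicate block) it called 0. Among the selected genes the count higher was 1 and became 0 without the pairing and 0 to 1 with a day left out, and the count lower was 0 and became 0 to 1, Hist1h2an without day 8. Lincenc1 kept its sign throughout (log2 0.70 to 1.07; adjusted p from 0.000682 by DESeq2 to 1 without pairing). Scaling each allele's columns by TMM moved the median log2 odds of all genes from -0.05 to -0.87 for allele by genotype and from -0.00 to -0.17 for the slope, so that 2968 and 1721 genes were called instead of 231 and 131, among them 10 and 2 selected genes as lower; none was tested against that shift. It also turned the slope of Hnrnpk to -0.03 (adjusted p = 0.814) and took that of Hspa8 to 0.00 (adjusted p = 1). With a day left out, the slope test called 45 to 141 genes and 0 to 1 selected genes as higher. The 8 genes named for their change from day 0 kept direction and call in all 64 refits. Depth limits the low shares: 0 cas counts among 16 allelic counts of Lincenc1 (RepB day 10) allow up to 20.6%.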

Other observations

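Copies of the histone H2A genes near Hist1h2an on chromosome 13 were also uneven between libraries. Hist1h2ao (start 21902236) had 115, 75, 62 and 48 total counts in WT at days 5, 6, 7 and 8 and 0 or 1 in the other 8 libraries. Hist1h2ai (start 21808281) had 130, 84 and 80 counts in WT at days 5, 8 and 10 and 2 to 19 in the others. The libraries with high counts differed between the 3 rows, which were looked at after their values were seen.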
